A study of Mus musculus with 3 samples.

Results

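The cells described here are CD8 T cells of the mouse lung chosen by their counts of Ccl5 and Nkg7. A cell entered if it held at least 2 unique molecular identifiers (UMIs, each counting 1 captured transcript) of Cd3d, Cd3e and Cd3g together, at least 1 of Cd8a and Cd8b1 together, 0 of Cd4 and at least 2 of Ccl5 and Nkg7 together. It could hold at most 1 UMI of Cd79a, Epcam, Cdh5 and Marco together, genes of B cells, epithelium, endothelium and alveolar macrophages. The rule took 852 of 12458 cells, 154 of 2947 in WT healthy, 323 of 4374 in WT tumour and 375 of 5137 in PPARg-/- tumour. They were proposed as effector and memory CD8 T cells, a name that their markers bore out only in part, so they are called the chosen CD8 T cells below.

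Each group was 1 droplet-based 3' RNA library that pooled lung cells of 3 mice, aged 16 to 20 weeks. Doxycycline was given in the chow (625 ppm) in every group. All mice carried Ccsp-rtTA and a TetO transgene of a lung cancer-associated mutant of EGFR, which doxycycline switches on in lung epithelium through the club cell promoter of Ccsp. WT healthy mice carried no further allele per the labels, WT tumour mice were also Pparg fl/fl, and PPARg-/- tumour mice were Pparg fl/fl with Csf1rCre, which drives Cre from the promoter of Csf1r, a gene of monocytes and macrophages. Lung cells were sorted as alveolar macrophages, CD11b+ macrophages, CD3+ T cells and epithelium and mixed in equal amounts, so shares are given only within T cells.

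CD8 T cells recognise peptides on MHC class I and kill the cells that show them, by releasing perforin and granzymes or by engaging death receptors. Naive cells circulate through lymph nodes with the homing receptor CCR7. After activation, effector and memory cells express the chemokine gene Ccl5, the granule membrane protein gene Nkg7, granzymes and killer-cell lectin receptors such as NKG2D (Klrk1), while resident memory cells stay in the tissue with integrins such as CD103 (Itgae) and CD49a (Itga1).

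Sequence is shown for the upstream regions of Nkg7, which admitted many of the cells alone, and of Gzmk, a granzyme gene found almost only in the cells that also held Ccl5. Each run is the 250 bases before the RefSeq transcription start (GRCm38.p6), read 5′ to 3′ on the gene's strand, in lower case. Capitals mark the T-box word AGGTGT or its reverse ACACCT and the RUNX word TGTGGT or its reverse ACCACA, the binding words of 2 factor families that act in CD8 T cells. The Nkg7 run lies at chr7:43436888-43437137 on the plus strand and the Gzmk run at chr13:113180966-113181215 on the minus strand.
Nkg7: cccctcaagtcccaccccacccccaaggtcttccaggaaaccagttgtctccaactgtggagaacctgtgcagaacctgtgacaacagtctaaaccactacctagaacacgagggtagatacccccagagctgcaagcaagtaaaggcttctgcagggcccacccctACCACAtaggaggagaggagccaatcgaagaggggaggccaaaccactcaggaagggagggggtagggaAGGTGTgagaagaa
Gzmk: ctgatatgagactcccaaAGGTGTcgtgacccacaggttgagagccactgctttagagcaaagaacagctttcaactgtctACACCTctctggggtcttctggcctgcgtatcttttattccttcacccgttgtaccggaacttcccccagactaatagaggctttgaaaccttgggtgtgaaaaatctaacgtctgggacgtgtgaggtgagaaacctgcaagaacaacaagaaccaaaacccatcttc

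Nkg7 held 1 RUNX word, 83 to 78 bases before the start, and 1 T-box word, 14 to 9 bases before it. Gzmk held 2 T-box words, 232 to 227 and 169 to 164 bases before the start. Of 32851 upstream runs of this length, 11.8% held a T-box word and 14.0% a RUNX word on either strand, and the words do not overlap one another. A word is a match of letters and not a shown binding site. The gene spans used for coordinates in this report (GRCm38) do not share these RefSeq starts. The Gzmk run lies inside the Gzmk span (113171608 to 113225908). The Nkg7 run passes the start of the Nkg7 span (43437073), so its T-box word lies inside that span.

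The libraries differed in depth, sex and RNA from other cells, and these differences touch the comparisons below. The chosen cells held a median of 4793, 3696 and 3259 UMIs, given here and throughout for WT healthy, then WT tumour, then PPARg-/- tumour, and 819325, 1453597 and 1569940 UMIs in sum. Their median mitochondrial share was 4.40%, 4.47% and 4.71%. No barcode of a chosen cell occurred in more than 1 library, and 4 to 6 barcodes of all cells were shared between any pair. Xist, transcribed from the inactive X, gave 996 CPM (counts per 1000000 summed UMIs) in WT healthy against 2.06 and 0.637 CPM, although males and females were used in similar numbers per the labels. These levels, and those of the Y-linked gene Ddx3y (0, 124 and 123 UMIs), separate WT healthy from both tumour libraries by sex, so that sex, floxed alleles and tumour cannot be told apart between WT healthy and WT tumour. With 1 library per group no test was possible, and every interval covers counting error only.

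Among CD8 T cells as the rest of the rule defines them (275, 541 and 678), the chosen cells made up 56.0% in WT healthy (exact 95% binomial interval 49.9 to 62.0), 59.7% in WT tumour (55.4 to 63.9) and 55.3% in PPARg-/- tumour (51.5 to 59.1). These intervals overlap, and whether the shares differ was not tested. Of all cells that met the Cd3 part of the rule (913, 1331 and 1616), they were 16.9% (14.5 to 19.5), 24.3% (21.99 to 26.7) and 23.2% (21.2 to 25.3). This share was lower in WT healthy than in both tumour libraries by more than the counting error, and it also moves with how many CD4 T cells and T cells without a Cd4 or Cd8 UMI each library held. The share among CD8 T cells depends on depth: with each cell thinned to 1000 UMIs before the rule was applied it was 27.0%, 33.3% and 35.1%.

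The chosen cells were split by Ccl5, which encodes a chemokine that draws T cells and monocytes (chromosome 11, 83525778 to 83530518, GRCm38). No Ccl5 UMI was found in 71, 135 and 149 of them, or 46.1%, 41.8% and 39.7%, and these 355 cells had entered by Nkg7 alone. Only 12, 18 and 27 cells held exactly 1 Ccl5 UMI. At least 2 were held by 71, 170 and 199 cells, with medians of 25, 26 and 35 UMIs and up to 264 in 1 cell. Of these, 22, 48 and 48 held 2 to 11 UMIs and 49, 122 and 151 held 12 or more. The plot of Ccl5 per cell shows a large bar at 0 and a broad hump above it. Its bins widen with the count, so the hump belongs to that scale and does not show a separate peak. Cells without Ccl5 could enter by Nkg7 alone, which shapes the bar at 0. Cells with 2 or more Ccl5 UMIs made up 25.8% (20.7 to 31.4), 31.4% (27.5 to 35.5) and 29.4% (25.9 to 32.9) of CD8 T cells.

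**Figure D1:**
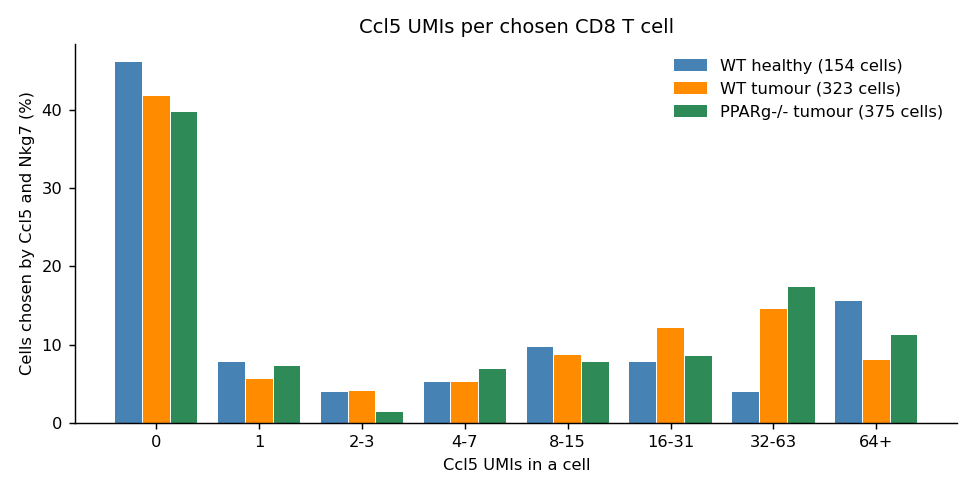
Share of the chosen CD8 T cells (y axis, %) by the number of Ccl5 UMIs in the cell (x axis, in widening bins), 1 bar colour per library. The bar at 0 holds 46.1%, 41.8% and 39.7% of cells, and 15.6%, 8.05% and 11.2% hold 64 UMIs or more.

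The cells without Ccl5 carried the genes of naive CD8 T cells. The lymph node homing receptor gene Ccr7 was found in 76.1%, 68.9% and 68.5% of them, against 29.6%, 22.9% and 14.6% of those with 2 or more Ccl5 UMIs, with median depths of 4755, 3781 and 3371 UMIs against 4798, 3305 and 2649. Dapl1, a gene of resting T cells, was found in 74.6%, 64.4% and 64.4% against 16.9%, 11.8% and 10.1%, and Lef1, a transcription factor gene of naive T cells, in 88.7%, 78.5% and 75.8% against 50.7%, 28.2% and 25.1%. Thinned to 1000 UMIs per cell, Ccr7 was still found in more of the cells without Ccl5 in each library, in 28.2%, 25.9% and 28.9% against 11.3%, 7.65% and 4.02%. The split was made after the data were seen and by a gene of the rule, so these are descriptions with no test.

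The effector genes lay almost entirely in the cells with 2 or more Ccl5 UMIs. Gzmk, a granzyme of memory-type CD8 cells, was found in 14.1%, 23.5% and 34.2% of them and in 0%, 0.741% and 0% of the cells without Ccl5. Gzma was found in 31.0%, 18.8% and 35.2% against 2.82%, 0% and 3.36%, and Klrk1 in 35.2%, 37.1% and 33.7% against 2.82%, 1.48% and 1.34%. Klrg1, a receptor of terminal effector cells, was found in 23.9%, 11.2% and 24.1% against 0% in each library, and S100a4, a calcium-binding protein gene of activated T cells, in 35.2%, 48.2% and 47.7% against 2.82%, 8.15% and 9.40%. Itgae went the other way, at 7.04%, 8.24% and 5.53% against 22.5%, 17.8% and 20.8%, although it is known as a residency gene. Over all chosen cells the 5 markers given for them were found as follows: Ccl5 in 53.9%, 58.2% and 60.3%, Nkg7 in 94.8%, 97.5% and 98.1%, Cd8a in 79.9%, 78.0% and 76.8%, Klrk1 in 17.5%, 20.4% and 18.4%, and Gzmk in 6.49%, 13.0% and 18.1%. The markers for effector and memory cells thus held for the cells with Ccl5 and not for the cells that entered by Nkg7 alone.

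**Figure D2:**
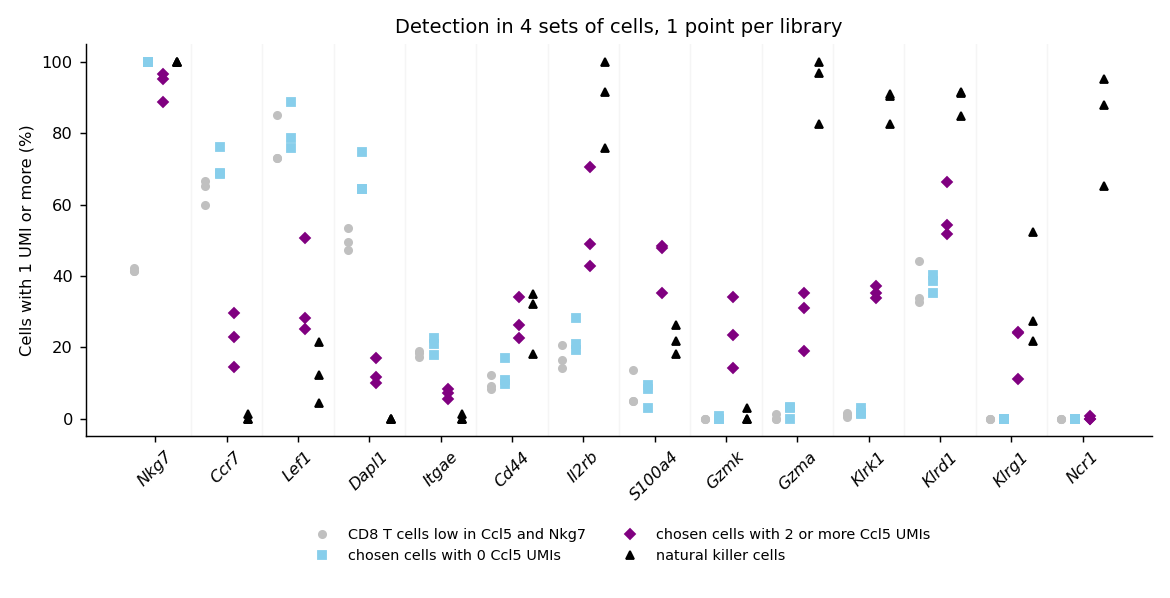
Share of cells with at least 1 UMI of each gene (y axis, %) in 4 sets of cells, with 1 point for each of the 3 libraries. The chosen cells with 0 Ccl5 UMIs (squares) lie near the CD8 T cells low in Ccl5 and Nkg7 (circles) for Ccr7, Lef1, Gzmk and Klrk1, and those with 2 or more (diamonds) lie apart from both, while Nkg7 and Ncr1 entered the rules that chose the cells.

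At the edge of the rule the values met. Cells with exactly 2 UMIs of Ccl5 and Nkg7 together, just inside (39, 78 and 86), held Lef1 in 84.6%, 75.6% and 74.4% and Gzmk in 0%, and cells with 1, just outside (54, 95 and 134), held Lef1 in 87.0%, 73.7% and 73.9% and Gzmk in 0%. At the Cd8 edge, 11, 28 and 31 chosen cells held a single Cd8a or Cd8b1 UMI. Among T cells just outside it, with 0 of Cd4, Cd8a and Cd8b1 but 2 or more of Ccl5 and Nkg7 (19, 69 and 79 cells), Klrk1 was found in 31.6%, 17.4% and 24.1% and Lef1 in 47.4%, 20.3% and 20.3%.

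Within the 71, 170 and 199 cells with 2 or more Ccl5 UMIs, the effector genes were found together to differing degrees. Gzma and Klrg1 often coincided: 12 of 17, 15 of 19 and 38 of 48 cells with Klrg1 also held Gzma. Of the cells with Gzmk (10, 40 and 68), 9, 12 and 36 also held Gzma. Cxcr3, a receptor of inflammatory homing, and Cx3cr1, a receptor of circulating effector cells, were found together in 0, 8 and 9 cells, beside 16, 51 and 45 with Cxcr3 alone and 15, 28 and 50 with Cx3cr1 alone. For genes with few UMIs per cell, cells that express them can go undetected, so these are lower counts of coincidence.

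Ncr1, Klrb1c, Trdc and Foxp3, defining genes of other lymphocytes, were each found in few of the chosen cells, although the marker lists summed to more. Ncr1, the natural killer receptor gene NKp46, gave 0, 2 and 0 UMIs, Klrb1c was found in 1, 7 and 8 cells, and Trdc, the constant gene of the delta T cell receptor chain, in 3, 4 and 5 cells. Foxp3, the regulatory T cell factor, was found in 0, 3 and 1 cells. At least 1 UMI of Trdc, Tcrg-C1, Tcrg-C2, Tcrg-C4, Ncr1, Klrb1c or Zbtb16 was found in 7, 30 and 28 chosen cells. The whole lists, in part genes that CD8 T cells also express such as Gzma and Eomes, summed to 849, 929 and 1953 CPM for 11 natural killer markers, with 2, 1 and 1 at 0, and to 229, 164 and 153 CPM for 4 markers of NKT or MAIT cells. The 5 markers of type 2 innate cells summed to 149, 118 and 92.4 CPM, the 4 of regulatory T cells to 79.3, 73.6 and 47.1 CPM and the 8 of gamma-delta T cells to 14.6, 31.0 and 22.9 CPM. In natural killer cells (84, 23 and 33), which held none of the Cd3, Cd8 and Cd4 UMIs, Gzma stood at 12639, 7583 and 11786 CPM and Prf1 at 1916, 1170 and 1447 CPM. The chosen cells held Gzma at 458, 263 and 623 CPM and Prf1, which encodes perforin, at 96.4, 53.0 and 73.9 CPM. No B cell (0 of 63, 68 and 120, which allows up to 4.76%, 4.41% and 2.50%) met the Ccl5 and Nkg7 minimum, at medians of 3185, 2049 and 1947.5 UMIs. Other classes did meet it: 4.66%, 13.7% and 12.2% of CD4 T cells (279, 315 and 312). Of alveolar macrophages, chosen by Marco (569, 467 and 21), 1.93%, 1.07% and 0% met it.

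Transcripts of macrophages and monocytes were present and differed between libraries. Lyz2, the lysozyme gene of myeloid cells, gave 598, 2625 and 9971 CPM in the chosen cells, and 13323, 22783 and 48578 CPM in free RNA, the barcodes of 10 to 100 UMIs. The 7 monocyte markers summed to 1543, 3584 and 10967 CPM, with 0 of 7 at 0 in each library. Barcodes with over 1% of their UMIs from 60 genes of other cell types, here mixed barcodes, numbered 4, 19 and 33 (2.60%, 5.88% and 8.80%). They held medians of 12537, 15725 and 11291 UMIs, and the Scrublet doublet caller marked 2, 9 and 14 of them. Without them the monocyte markers summed to 1065, 1454 and 1860 CPM. Many counts and calls below are also given without the mixed barcodes, an alternative chosen after the data were seen. The cells with 2 or more Ccl5 UMIs held 0, 12 and 18 of them. List counts of that set are given for some lists only, and there with and without them.

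Against CD8 T cells low in Ccl5 and Nkg7 (121, 218 and 303 cells), the 8 genes that stood highest in the chosen cells in all libraries included 2 granzyme genes and 3 lectin receptor genes. The rule split these cells, so the values describe it and carry no test. Gzmb, a granzyme that triggers apoptosis, stood at 123, 56.4 and 63.1 CPM against 0 in each library. Klre1 and Klrc1, lectin receptor genes shared with natural killer cells, stood at 52.5, 48.8 and 87.3 CPM and at 48.8, 35.8 and 29.9 CPM, also against 0. Klrk1 stood at 79.3, 94.9 and 90.4 CPM against 3.72, 1.23 and 2.53, and Il18rap, a subunit of the interleukin-18 receptor, at 69.6, 70.9 and 68.2 CPM against 9.29, 2.47 and 4.21. Ctla2a, a protease inhibitor gene, and Top2a, which untangles DNA in dividing cells, completed the 8 highest together with Gzma. The 8 lowest differed less: Lef1 stood at 342, 257 and 241 CPM against 574, 427 and 394, and Ccr9, a gut-homing receptor gene of recent thymic emigrants, at 70.8, 39.2 and 48.4 CPM against 206, 93.7 and 82.5. Igfbp4, Pik3ip1, Slc12a7, Tent5c, Mettl9 and Ramp1 were the others. Of 3902 genes measured in all 3 libraries, 60 were higher and 7 lower in the chosen cells in every one.

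Against natural killer cells, the chosen cells held more of the T cell factor gene Bcl11b (294, 271 and 267 CPM against 3.21, 0 and 0) and of the interleukin-7 receptor gene Il7r (662, 655 and 631 CPM against 0, 116 and 26.3). Dapl1, S1pr1, Ccr7 and Lef1 were higher too, and so were H2-Ab1 and Cd74, genes of antigen-presenting cells that the mixed barcodes carry. Klra8, a Ly49 receptor gene of natural killer cells, stood at 0, 0 and 2.55 CPM against 408, 900 and 645, and the chemokine gene Xcl1 at 6.10, 19.3 and 19.1 CPM against 341, 938 and 618. Klra3, Klra9, Klre1, Serpinb9, Gzma and Prf1 were lower as well. Only 23 natural killer cells came from WT tumour.

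The 2 comparisons below share the WT tumour library, so that a value high or low there enters both. A gene was counted as higher or lower when its CPM, summed over cells, differed at least 1.5-fold and the 95% interval of the ratio (exact, from both Poisson counts) left out 1, among genes with at least 20 UMIs over both libraries. The rule speaks of size alone. A summed CPM cannot tell more cells with a transcript from more transcripts per cell. The 95% interval follows each log2 ratio in parentheses.

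Tumour-bearing lungs were first set against healthy ones, WT tumour over WT healthy, with the reservations on sex and alleles above. That WT healthy lungs were healthy rests on the label alone. Those mice carried the same transgenes and received doxycycline, and how they stayed without tumours was not stated. In WT tumour the chosen cells held fewer transcripts of early activation genes, heat shock genes, Ifng, Gzma and Gzmb, and more of Gzmk and of the integrin genes Itga1 and Itgb1. Of 8133 genes tested, 683 were higher (8.40%) and 331 lower (4.07%), and the log2 ratio had a median of 0.06. Without mixed barcodes 288 of 7333 were higher (3.93%) and 319 lower (4.35%). Among cells with 2 or more Ccl5 UMIs, another set chosen after the data were seen, 592 of 6272 were higher (9.44%) and 261 lower (4.16%), and without their mixed barcodes 228 of 5399 were higher (4.22%) and 219 lower (4.06%).

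Genes that T cells switch on early after receptor signals or handling were lower in WT tumour. Of 31 measured, 10 were lower and 1 (Klf4) higher, and the list's median was -0.18 on the log2 scale. Without mixed barcodes 11 of 29 were lower and 0 higher, with a median of -0.35. Among cells with 2 or more Ccl5 UMIs 6 of 27 were lower and 5 higher (Atf3, Klf4, Fosb, Zfp36, Fos), so calls went both ways there, and without the mixed barcodes of that set 8 of 25 were lower and 0 higher. Nr4a3, a nuclear receptor gene induced by antigen receptor signals, had the lowest ratio of the ranked genes, at 39.1 CPM (26.7 to 55.1) in WT healthy and 7.57 CPM (3.78 to 13.5) in WT tumour, a log2 ratio of -2.37 (-3.50 to -1.34). Its relative Nr4a2 stood at 79.3 and 19.3 CPM (-2.04, -2.74 to -1.38), and Nr4a1 at 109 and 55.7 CPM (-0.96, -1.42 to -0.51), or -1.85 without mixed barcodes. Tnfaip3, an inhibitor of NF-kB signalling, stood at 193 and 72.2 CPM (-1.42, -1.79 to -1.05), Cd69, which holds lymphocytes in tissue, at 319 and 177 CPM (-0.84, -1.10 to -0.59), and the phosphatase gene Dusp2 at 239 and 104 CPM (-1.20, -1.52 to -0.89). Nfkbid, Ier2, Zfp36l2 and Dusp5 were the other lower genes. Klf4 was carried by mixed barcodes, with 1.91 in all cells and 0.26 (-0.82 to 1.41) without them. In PPARg-/- tumour, Nr4a3, Nr4a2 and Nr4a1 stood at 25.5, 52.2 and 111 CPM.

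Heat shock genes, which encode protein-folding chaperones, were lower as well. Of 17 measured, 9 were lower and 0 higher, and their median was -0.60 in log2 units, or -0.58 without mixed barcodes. Hspa8, the constitutive Hsp70, stood at 1638 CPM (1551 to 1728) in WT healthy, 1023 CPM (972 to 1076) in WT tumour and 1189 CPM (1135 to 1244) in PPARg-/- tumour. Hsph1 stood at 182, 55.7 and 88.5 CPM, the lowest level again in WT tumour (-1.71, -2.12 to -1.31), and Hsp90aa1 at 782, 413 and 530 CPM. Dnaja1, Dnajb1, Dnajb4, Chordc1, Ahsa1 and Stip1 were the other lower genes. Without mixed barcodes 8 were lower, with Hspa1b among them and Dnajb4 and Chordc1 not called (-0.47 and -0.53). Heat shock and early activation genes respond to tissue digestion too, and a part of digestion in the difference was not tested.

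The granule genes divided. Gzmk (chromosome 13, 113171608 to 113225908) stood at 24.4 CPM (14.9 to 37.7) in WT healthy, 47.5 CPM (36.9 to 60.1) in WT tumour and 69.4 CPM (57.0 to 83.8) in PPARg-/- tumour. It was higher in WT tumour than in WT healthy, by a log2 ratio of 0.96 (0.22 to 1.76). Gzmb was lower, at 123 CPM (100.4 to 150) and 56.4 CPM (44.9 to 70.0) with a log2 ratio of -1.13 (-1.57 to -0.69). Gzma stood at 458 and 263 CPM (-0.80, -1.01 to -0.59), Prf1 at 96.4 and 53.0 CPM (-0.86, -1.34 to -0.39), and Serpinb6b, a serpin gene, at 42.7 and 17.2 CPM (-1.31, -2.11 to -0.53). In both libraries 1 cell held about 20% of the Gzma UMIs, 20.3% in WT healthy and 20.7% in WT tumour. Lamp1 and Ctsc, lysosomal genes that macrophages also express, were higher in all cells (0.72 and 1.10) but stood at 0.13 (-0.35 to 0.62) and -0.02 (-0.56 to 0.53) without mixed barcodes, and both are open to free RNA. The list as a whole had 3 of 17 higher and 4 lower, and its median was -0.13. Without mixed barcodes 3 of 17 were higher (Crtam, Gzmk, Ctsw) and 4 lower. Among cells with 2 or more Ccl5 UMIs 3 of 17 were higher (Ctsc, Lamp1, Ctsw) and 5 lower, and Gzmk was not called. Without the mixed barcodes of that set 2 were higher (Gzmk, Ctsw) and 5 lower.

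Among secreted factors, Ifng, the interferon gamma gene, was lower in WT tumour. It stood at 97.6 CPM (77.4 to 122) in WT healthy and 27.5 CPM (19.7 to 37.5) in WT tumour, a log2 ratio of -1.83 (-2.41 to -1.26), with 80 UMIs in 23 cells against 40 in 28. The chemokine gene Ccl3 was lower too (41.5 and 8.94 CPM), but 1 WT healthy cell held 47.1% of its UMIs there, and its log2 ratio of -2.21 was -1.61 without mixed barcodes. Xcl1, which attracts cross-presenting dendritic cells, was higher at 6.10 and 19.3 CPM (1.66, 0.27 to 3.39), and the growth factor gene Flt3l at 15.9 and 32.3 CPM (1.03, 0.12 to 2.04). Tnf stood at 33.0 and 26.8 CPM (-0.30, -1.04 to 0.47). Ccl4 was not called over all cells (-0.51, -0.92 to -0.11), but was lower without mixed barcodes by -0.95 (-1.41 to -0.49). Of 12 measured, 2 were higher and 2 lower over all cells, and 2 higher and 3 lower without mixed barcodes. Among cells with 2 or more Ccl5 UMIs 0 of 12 were higher and 3 lower (Ifng, Ccl3, Ccl4). Xcl1 and Flt3l were thus not called in that set, and both were called higher without its mixed barcodes.

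Genes of the terminal effector list moved in both directions. Of 24 measured, 9 were higher and 3 lower, and without mixed barcodes 4 of 22 were higher and 3 lower. Itgb1, the beta-1 integrin gene, stood at 172 and 356 CPM (1.05, 0.78 to 1.33). The calcium-binding protein genes S100a4 and S100a6 stood at 165 and 304 CPM (0.88, 0.60 to 1.17) and at 388 and 657 CPM (0.76, 0.57 to 0.95). Id2, a transcriptional regulator of effector cells, stood at 172 and 278 CPM (0.69, 0.41 to 0.98). These 4 were higher without mixed barcodes too. Vim, Zeb2, Cx3cr1, Anxa1 and Anxa2 were higher over all cells, with log2 ratios of 0.30, 0.14, 0.50, 0.16 and 0.06 without mixed barcodes, Anxa1 on fewer than 20 UMIs. Klrg1 was lower, at 42.7 CPM (29.8 to 59.4) and 17.2 CPM (11.1 to 25.4), a log2 ratio of -1.31 (-2.11 to -0.53), but at 0.05 (-1.45 to 1.73) with each cell thinned to 1000 UMIs, so its direction flips there.

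**Figure D3:**
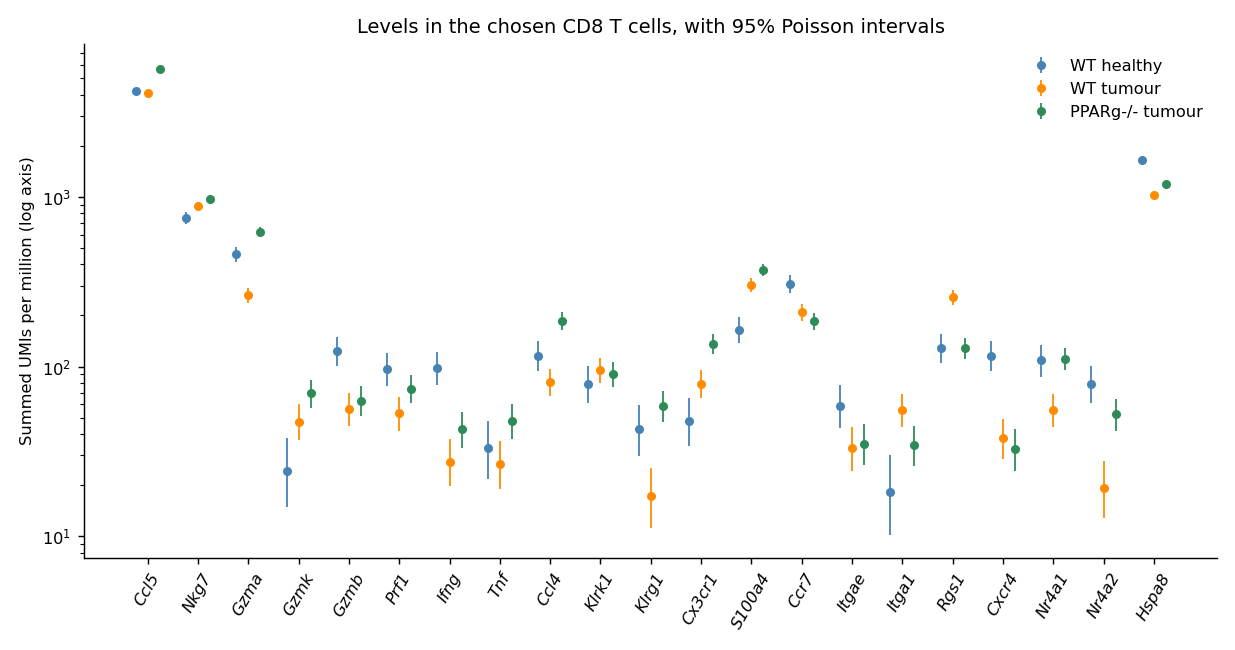
CPM, from summed UMIs, in the chosen CD8 T cells (y axis, log scale) for 21 genes, 1 point per library with its exact 95% Poisson interval, which covers counting error only. Ifng, Gzmb, Cxcr4 and Nr4a2 are lower in WT tumour than in WT healthy, and Gzma, Klrg1 and Ccl4 are higher in PPARg-/- tumour than in WT tumour.

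Homing and residency genes are given for all chosen cells and for those with 2 or more Ccl5 UMIs. Over all cells, the memory and lymphoid homing list had 1 of 20 higher (Bcl2, a survival gene, 203 and 315 CPM) and 2 lower (the costimulatory receptor gene Cd28, 294 and 151 CPM, and the chromatin organiser gene Satb1, 575 and 305 CPM). Among cells with 2 or more Ccl5 UMIs, 8 of 18 were lower and 1 higher, and the median was -0.42, but without their mixed barcodes 4 of 18 were lower and the median was -0.13. Ccr7 there was lower by -1.01 (-1.53 to -0.49) and Lef1 by -0.98 (-1.47 to -0.48), or by -0.61 (-1.13 to -0.09) and -0.72 (-1.23 to -0.21) without mixed barcodes, whereas over all chosen cells they differed by -0.56 and -0.41. The residency list had 5 of 17 higher and 3 lower over all cells (median 0.35), and 7 of 16 higher and 2 lower without mixed barcodes (median 0.27). Among cells with 2 or more Ccl5 UMIs 8 of 17 were higher and 1 lower (median 0.81), with Ifitm2 and Ifitm3, which other cells express widely, among the 8. Cd74, a gene of antigen-presenting cells, had a log2 ratio of 7.84 in that set. Leaving out the mixed barcodes of that set, Cd74 was still called higher, at 3.43 (1.80 to 5.76). There 8 of 14 residency genes were higher and 1 lower (median 0.70). The 8 were Rgs1, Xcl1, Ifitm1, Inpp4b, Cdh1, Jaml, Cxcr6 and Itga1. The part of transcripts from other cells in these values was not tested. Whether the sets of cells differ in these ratios was not tested.

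Itga1, which binds collagen in the tissue, stood at 18.3 CPM (10.2 to 30.2) in WT healthy, 55.7 CPM (44.3 to 69.3) in WT tumour and 34.4 CPM (25.8 to 44.9) in PPARg-/- tumour. It was higher in WT tumour than in WT healthy by 1.61 (0.80 to 2.51). Rgs1, a brake on chemokine signals in resident cells, stood at 128, 257 and 128 CPM and was higher in WT tumour by 1.00 (0.69 to 1.33). Itgae was lower over all cells (58.6 and 33.0 CPM, -0.83, -1.44 to -0.22) but not by the rule without mixed barcodes (-0.55, -1.17 to 0.07), and Icos, a costimulatory receptor gene, was lower at 104 and 55.0 CPM (-0.91, -1.37 to -0.46). Ifitm1 and Cdh1 were higher but open to free RNA, and Ifitm1 was found in 1 and 7 cells. Among chemokine receptors, Cxcr4 was lower at 116 and 37.8 CPM (-1.62, -2.12 to -1.12) and Ccr9 at 70.8 and 39.2 CPM (-0.85, -1.41 to -0.30), and Cxcr3 was higher at 35.4 and 66.0 CPM (0.90, 0.29 to 1.55). Cd44, the receptor that marks antigen-experienced T cells, was higher by 1.52 (1.07 to 1.99), or 0.72 (0.14 to 1.32) without mixed barcodes.

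Cell cycle genes depended on the mixed barcodes here. Over all cells 1 of 22 was lower (Tubb5) and 0 higher, with a median of -0.10, and without mixed barcodes 10 of 21 were lower and 0 higher, with a median of -0.74. Among the 10 were Top2a, at -0.72 (-1.17 to -0.26) without mixed barcodes and -0.04 over all cells, the tubulin-binding Stmn1, at -0.76 (-1.14 to -0.38) and -0.17, and the mitotic gene Birc5, at -1.04 (-1.79 to -0.31) and -0.41. Cenpf, Ube2c, Tyms, Mcm5, Ccnb2, Tuba1b and Tubb5 were the others. In the cells with 2 or more Ccl5 UMIs 4 of 22 were lower, and 10 of 18 without their mixed barcodes (median -0.86).

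The genes with the highest ratios included several that mixed barcodes carried. Fcgr2b, an inhibitory Fc receptor gene, stood at 8.54 and 66.7 CPM (2.97, 1.87 to 4.32), or 1.39 (-0.50 to 3.85) without mixed barcodes, on fewer than 20 UMIs. Cd74 stood at 295 and 1254 CPM in all cells and at 114 and 103 CPM without mixed barcodes, where its log2 ratio was -0.15 (-0.56 to 0.26), and Ccdc88a at 1.94 in all cells and 0.10 (-1.06 to 1.32) without. Those that were called in both sets were Serpina3g, a serpin gene of activated T cells (11.0 and 39.9 CPM, 1.86, 0.84 to 3.06), Lyrm9 (6.10 and 27.5 CPM), Chchd5 (8.54 and 30.3 CPM), Raph1 (8.54 and 28.2 CPM) and the proteasome adaptor gene Ecpas (14.6 and 51.6 CPM, 1.82, 0.93 to 2.83, and 2.87 without mixed barcodes). Among the lowest stood also Rab3ip (40.3 and 12.4 CPM) and the clock-interacting Cipc (30.5 and 11.0 CPM).

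**Figure D4:**
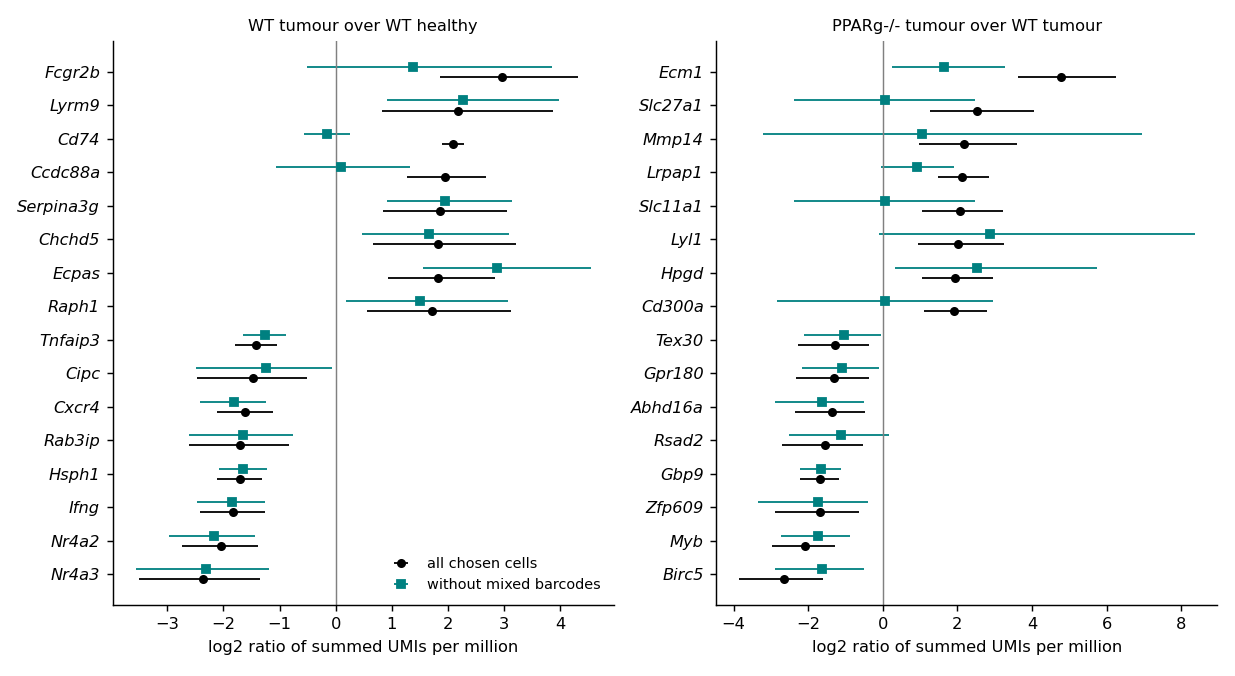
log2 ratios of CPM (x axis) for the 8 highest and 8 lowest ranked genes of each comparison, with exact 95% intervals for counting error, in all chosen cells (circles) and without mixed barcodes (squares). The squares of Cd74, Ccdc88a, Slc27a1, Slc11a1 and Cd300a lie near 0, for Slc27a1, Slc11a1 and Cd300a on fewer than 20 UMIs and with wide intervals, and those of the 8 lowest genes in each panel stay below 0.

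PPARg-/- tumour was then set over WT tumour, to ask how T cells differ in tumour-bearing lungs where Csf1rCre meets floxed Pparg. In PPARg-/- tumour the chosen cells held more Gzma, Klrg1, Ifng, Tnf, Ccl3 and Ccl4 and less Rgs1, Jaml, Myb and Birc5. Of 9065 genes tested, 515 were higher (5.68%) and 259 lower (2.86%). Without mixed barcodes 209 of 7863 were higher (2.66%) and 190 lower (2.42%). Among cells with 2 or more Ccl5 UMIs, 377 of 7482 were higher (5.04%) and 304 lower (4.06%), and without their mixed barcodes 182 of 5996 were higher (3.04%) and 169 lower (2.82%). Pparg itself gave 1.22, 14.4 and 62.4 CPM in the chosen cells and was carried by mixed barcodes: without them its log2 ratio in this comparison was 0.06 (-2.37 to 2.48) on fewer than 20 UMIs. Recombination in T cells was not tested. In alveolar macrophages, chosen by Marco, Pparg stood at 196, 157 and 222 CPM and was found in 474 of 569, 387 of 467 and 19 of 21 cells, and a 3' count cannot tell an intact transcript from one without the floxed exons. The deletion could therefore not be read from these alveolar macrophages, of which only 21 came from PPARg-/- tumour. Pparg in other macrophages is not given here, and that library is named by its label.

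Cytotoxic granule genes were higher or not called. Of 17 measured, 3 were higher and 0 lower over all cells (median 0.20), and 5 higher and 0 lower without mixed barcodes (median 0.43). Among cells with 2 or more Ccl5 UMIs 5 of 17 were higher and 0 lower. Without the mixed barcodes of that set 7 of 17 were higher and 0 lower. Gzma (chromosome 13, 113093825 to 113100981) stood at 263 CPM (237 to 291) in WT tumour and 623 CPM (585 to 663) in PPARg-/- tumour, a log2 ratio of 1.25 (1.07 to 1.42), with UMIs in 32 and 75 cells. WT healthy stood between them at 458 CPM. Fasl, the death receptor ligand gene, stood at 27.5 and 46.5 CPM (0.76, 0.18 to 1.35). Without mixed barcodes Prf1, Gzmb and Gzmk passed the rule as well, at 0.72 (0.27 to 1.19), 0.68 (0.20 to 1.17) and 0.60 (0.14 to 1.07), against 0.48, 0.16 and 0.55 over all cells. Lamp1 was higher over all cells (1.08) and not without mixed barcodes (-0.03, -0.46 to 0.39).

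Cytokine and chemokine genes stood higher in PPARg-/- tumour, 4 of 12 measured and 0 lower. Ccl4, which encodes a chemokine that draws macrophages and T cells, stood at 81.2 CPM (67.2 to 97.2) in WT tumour and 186 CPM (165 to 209) in PPARg-/- tumour (1.20, 0.88 to 1.52), or 1.83 (1.45 to 2.23) without mixed barcodes. Ccl3 stood at 8.94 and 46.5 CPM (2.38, 1.52 to 3.35) and is open to free RNA. Ifng stood at 27.5 and 42.7 CPM (0.63, 0.05 to 1.24) and Tnf at 26.8 and 47.8 CPM (0.83, 0.26 to 1.43). Ccl5 stood at 4081 and 5676 CPM (0.48, 0.43 to 0.52), below the 1.5-fold limit, and above it without mixed barcodes (0.63, 0.58 to 0.68). Ccl5 was used to choose the cells, so its level is given as a description.

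Receptors of terminal effector and natural killer type were higher too. Klrg1 stood at 17.2 CPM (11.1 to 25.4) in WT tumour and 58.6 CPM (47.2 to 71.9) in PPARg-/- tumour, a log2 ratio of 1.77 (1.12 to 2.47), and at 42.7 CPM in WT healthy. Klre1 stood at 48.8 and 87.3 CPM (0.84, 0.41 to 1.27). Of 24 terminal effector genes measured, 5 were higher, among them the integrin gene Itgam (0.97, or 1.58 without mixed barcodes), and 1 lower (Anxa2, -0.66, or -0.36 and not called without mixed barcodes). Without mixed barcodes 5 of 24 were higher and 1 lower, there Itgb1 (-0.74, -0.98 to -0.50). Among cells with 2 or more Ccl5 UMIs 3 of 24 were higher (Klrg1, Tbx21, Gzma) and 1 lower (Itgb1). Leaving out the mixed barcodes of that set, 4 of 22 were higher (Klrg1, Tbx21, Gzma, Gzmb) and 1 lower (Itgb1). Itgam was thus not called in that set, with or without them. Over all cells 4 of 13 lectin receptor genes were higher (Cd244a, Klrg1, Klre1, Tyrobp) and 0 lower. Without mixed barcodes 4 of 12 were higher (Cd160, Klrg1, Klre1, Tyrobp) and 0 lower. Tbx21, the T-bet factor gene of effector cells, stood at 24.1 and 35.0 CPM (0.54, -0.10 to 1.20), and passed the rule without mixed barcodes (0.78, 0.10 to 1.47). Cx3cr1 and S1pr5 passed over all cells only, at 0.33 (-0.15 to 0.82) and 0.85 (-0.12 to 1.87) without mixed barcodes. Cd244a was 1.06 (-0.35 to 2.61) there, and Tyrobp, an adaptor gene that myeloid cells hold in plenty, is open to free RNA.

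Residency genes leaned lower in PPARg-/- tumour, with 6 of 20 lower, 2 higher and a median of -0.27 in log2 units. Without mixed barcodes 5 of 18 were lower and 2 higher. Among cells with 2 or more Ccl5 UMIs 6 of 18 were lower and 1 higher, and 4 of 16 were lower and 2 higher without their mixed barcodes. Rgs1 stood at 257 CPM (231 to 284) in WT tumour and 128 CPM (111 to 147) in PPARg-/- tumour, a log2 ratio of -1.003 (-1.26 to -0.75). Jaml, an adhesion receptor gene, stood at 86.7 and 48.4 CPM (-0.84, -1.27 to -0.42). Itga1 and Icos passed over all cells (-0.70, -1.22 to -0.18, and -0.73, -1.26 to -0.21) but not without mixed barcodes (-0.55, -1.13 to 0.02, and -0.56, -1.13 to 0.00). Among cells with 2 or more Ccl5 UMIs Itga1 was called lower with and without their mixed barcodes, and Icos only with them. The checkpoint receptor gene Ctla4 stood at 22.7 and 8.28 CPM (-1.46, -2.50 to -0.49). Ifitm1 rested on 7 and 4 cells, and 1 cell held 81.8% of its PPARg-/- tumour UMIs, with a log2 ratio of -1.04, or -3.75 without mixed barcodes. The 2 higher genes, Ifitm2 and Ifitm3, are interferon-induced membrane proteins that other cells express widely, and both stayed called without mixed barcodes. Pdcd1, which encodes PD-1, stood at 7.32, 6.88 and 7.01 CPM in the 3 libraries, from 6 to 11 UMIs.

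Early activation genes depended on the mixed barcodes. Of 31, 7 were higher and 1 lower (Fosb, -0.83, or -1.60 without mixed barcodes) over all cells with a median of 0.28, and 4 of 30 higher and 3 lower without mixed barcodes with a median of -0.07. Nr4a2 (1.44, 0.80 to 2.11), Nr4a3 (1.75, 0.76 to 2.86) and Nr4a1 (0.99, 0.60 to 1.39) were higher, and stayed called without mixed barcodes. Among cells with 2 or more Ccl5 UMIs 4 of 30 were higher and 3 lower (Atf3, Fos, Dusp5). Atf3 was higher over all cells, and Nr4a1 was not called in that set. Without the mixed barcodes of that set 6 of 25 were higher, Nr4a1 among them, and 3 lower. The heat shock genes Hspa1a and Hspa1b stood at 125 and 247 CPM (0.99, 0.73 to 1.25) and at 132 and 293 CPM (1.15, 0.90 to 1.40). Hsph1 was higher too (0.67, 0.26 to 1.08), and the list had 3 of 18 higher, 1 lower (Dnajb4) and a median of 0.08.

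**Figure D5:**
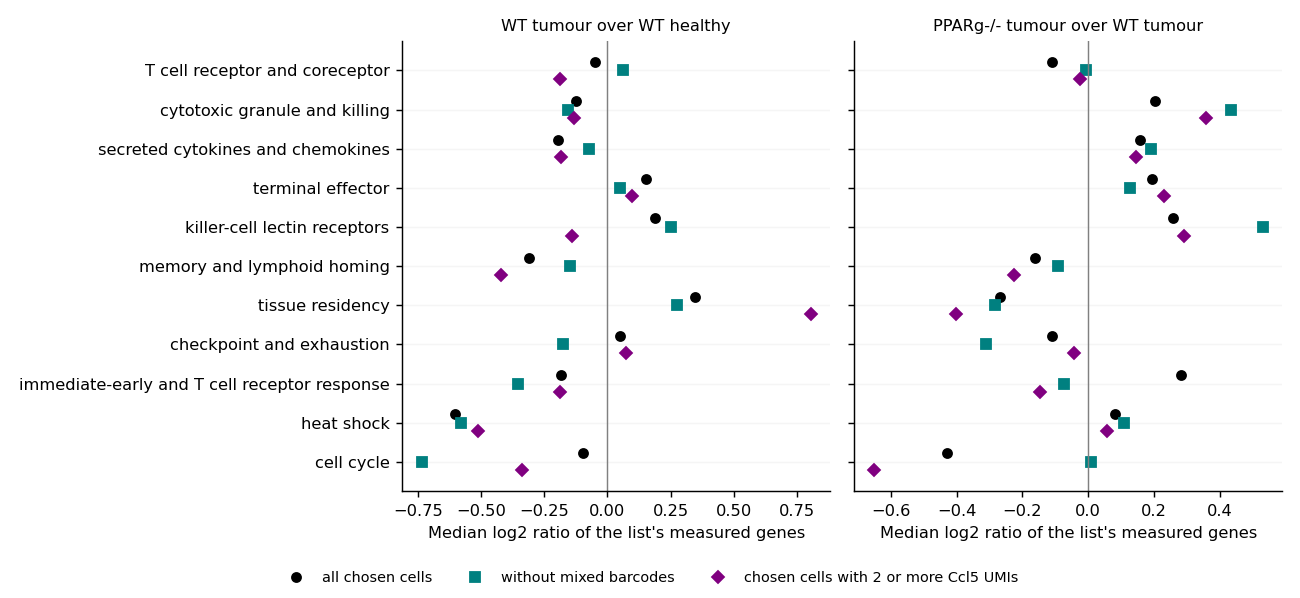
Median log2 ratio (x axis) of the measured genes of 11 lists in each comparison, for all chosen cells (circles), without mixed barcodes (squares) and for cells with 2 or more Ccl5 UMIs (diamonds). Heat shock lies at -0.60, -0.58 and -0.51 in the left panel, residency leans right in the left panel and left in the right panel, and the cell cycle median moves most with the mixed barcodes.

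Cell cycle genes were lower in PPARg-/- tumour over all cells, 10 of 23 with 0 higher and a median of -0.43, but this rested on the mixed barcodes. Without them 1 of 20 was lower, and the median was 0.0092. In the cells with 2 or more Ccl5 UMIs 10 of 22 were lower, and 2 of 18 without their mixed barcodes. Birc5, which encodes the mitotic protein survivin, was the 1 that remained called: it stood at 35.8 and 5.73 CPM (-2.64, -3.85 to -1.61), or -1.63 (-2.89 to -0.51) without mixed barcodes, and was found in 15 and 3 cells. Top2a stood at 103 and 51.6 CPM over all cells and had a log2 ratio of 0.0031 (-0.46 to 0.47) without mixed barcodes. Mki67 was found in 5.19%, 5.88% and 5.07% of the chosen cells.

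The ranked genes were carried unequally by mixed barcodes. Myb, a factor gene of memory precursors, stood at 43.3 and 10.2 CPM (-2.09, -2.98 to -1.28), and the guanylate-binding protein gene Gbp9 at 90.1 and 28.0 CPM (-1.69, -2.21 to -1.18), with -1.75 and -1.65 without mixed barcodes. Zfp609, Abhd16a, Gpr180 and Tex30 were lower in both sets, and the antiviral gene Rsad2 over all cells only. On the higher side, Ecm1, a matrix protein gene, stood at 4.13 and 113 CPM (4.78, 3.63 to 6.25), but at 5.10 and 15.9 CPM without mixed barcodes (1.64, 0.25 to 3.26). Slc27a1, Slc11a1 and Cd300a had log2 ratios of 2.51, 2.06 and 1.91 in all cells and of 0.06 in each case without mixed barcodes (-2.37 to 2.48 for the first 2 and -2.84 to 2.96 for Cd300a), where each fell below the minimum of 20 UMIs and no direction can be read. Mmp14, Lrpap1 and Lyl1 had intervals that reached below 0 without mixed barcodes, and Hpgd, the prostaglandin dehydrogenase gene, stood at 2.52 (0.32 to 5.73) there on 1.70 and 9.72 CPM, and Mmp14, Lyl1 and Hpgd too fell below the minimum there. The part of neighbouring macrophages in these values, beyond the mixed barcodes left out, was not tested.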

How the data were processed

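For each of 3 libraries the authors deposited a matrix of raw UMI counts by gene and barcode, with empty barcodes left in. The submitters' processing notes name build mm10, Seurat 4.0.1 and Cell Ranger 6.0.1, whereas the matrices name Cell Ranger 4 per the file headers. Other steps were not given in the sources used here. Libraries held 30454790, 46148658 and 44548318 UMIs.

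Barcodes with at least 1000 UMIs, 500 genes and at most 10% mitochondrial UMIs were kept, and no doublets were removed. Scrublet (scanpy, expected rate 6%) served as an alternative and marked 2, 10 and 21 chosen cells. Counts were summed per library and scaled to CPM. Shares have Clopper-Pearson intervals. A count of 0 was set to 3 in ratios. A gene was called open to free RNA where 10% of its free-RNA CPM reached 50% of its CPM in the chosen cells of either library of the comparison. Natural killer cells held 0 UMIs of the Cd3 and Cd8 genes and Cd4, at least 2 of Nkg7 and at least 1 of Ncr1 and Klrb1c. Code was tested on simulated data.

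The members and the 21 gene lists were chosen with earlier results of these data known. Genes were named if they were markers, called list members, or among the 8 highest and 8 lowest ratios with at least 40 UMIs in all and 15 cells in the higher library, 1 cell holding at most 25%, leaving out sex-linked, mitochondrial, ribosomal, receptor-segment, other-cell marker and free-RNA genes. Of the class contrasts, the 8 genes with the largest smallest ratio over the 3 libraries were named each way. Other genes are named for their role, and some results are not reported here. Python 3.11.15 and scipy were used, with upstream sequences from RefSeq.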

Additional observations from a re-analysis of the deposited data

How the results depend on the processing

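No paired analysis was possible because each group is a single library. Shares among CD8 T cells (WT healthy, then WT tumour, then PPARg-/- tumour) moved to 34.55%, 38.6% and 34.7% with a Ccl5 and Nkg7 minimum of 4, to 27.0%, 33.3% and 35.1% on thinned cells, to 25.8%, 31.4% and 29.4% with Ccl5 of 2 or more, to 26.7%, 30.7% and 29.15% with that and without mixed barcodes together, and PPARg-/- tumour to 62.15% at a 5% mitochondrial limit. In WT tumour over WT healthy, 104 genes were higher and 108 lower after thinning, 1296 and 830 by the mean of each cell's CPM (fold alone), 450 higher at 50 UMIs, 126 lower at a fold of 2, 288 higher without mixed barcodes, and 228 higher and 219 lower without them among cells with 2 or more Ccl5 UMIs. In PPARg-/- tumour over WT tumour, 118 were higher and 124 lower after thinning, 1041 and 869 by the mean CPM, 320 higher at 50 UMIs, 343 higher and 117 lower at a fold of 2, 209 higher without mixed barcodes, and 182 higher and 169 lower without them among cells with 2 or more Ccl5 UMIs. The cell cycle median was -0.736 and 0.0092 without mixed barcodes in the 2 comparisons, a change of direction in the second, and -0.855 and 0.13 without them among cells with 2 or more Ccl5 UMIs, where the fatty acid median of the first comparison also changed direction, to -0.147. Single genes changed sign in 7 cases: Ccdc88a (-1.65, first) and Top2a (0.048, second) in that last set, Klrg1 (0.047, first comparison, thinned), Cd74 (-0.15, first, without mixed barcodes), Lyl1 (-0.80) and S100a4 (-0.089) (second, thinned), and Top2a (0.0031, second, without mixed barcodes). Thinning and higher minimums test fewer genes; the cause of the other shifts was not tested. Of the remaining alternatives, 17 shares, 41 counts, 583 list medians and 1282 single gene ratios kept within the limits set, and 173 single gene ratios moved beyond them. Pooled mice, 1 library per group and low UMI counts per cell for many effector genes limit every value.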

Other observations

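Oxidative phosphorylation and T cell receptor genes held few called members. Of 28 oxidative phosphorylation genes 1 was higher (Ndufc1, 62.2 and 114 CPM) and 0 lower in WT tumour over WT healthy, and 0 and 0 in PPARg-/- tumour over WT tumour. Of 19 T cell receptor and coreceptor genes, Thy1 was higher in the first comparison (225 and 377 CPM, 0.75, 0.50 to 1.00) and none passed in the second, where the list's median was -0.11. Of 35 interferon response genes, 1 was higher (Ly6a, 61.0 and 144 CPM) and 2 lower in the first comparison, and 1 was lower (Xaf1, 47.5 and 28.7 CPM) in the second. The class I genes H2-Q6, H2-Q7 and H2-T22 were higher in WT tumour (H2-Q7 at 416 and 722 CPM, 0.80, 0.62 to 0.98), whereas H2-D1 stood at 1991 and 1324 CPM, lower over all cells (-0.59, -0.68 to -0.49) and just inside the 1.5-fold limit without mixed barcodes (-0.57).

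Of 24 fatty acid and sterol genes 8 were higher and 0 lower in WT tumour over WT healthy, with a median of 0.44, beside 8.40% of all genes higher. The 8 were Soat1, Fabp5, Cd36, Pparg, Sqle, Abcg1, Cpt1a and Scd1, and 7 of the genes measured are open to free RNA. Without mixed barcodes 2 of 19 were higher, Fabp5 and Scd1, and 1 lower (Hmgcs1, -1.20, -2.15 to -0.29), with a median of 0.19. Fabp5, a fatty acid carrier gene of macrophages and T cells, stood at 11.0 and 149 CPM (3.76, 2.81 to 4.91), or 1.94 (0.85 to 3.23) without mixed barcodes. Scd1, a fatty acid desaturase gene, stood at 1.22, 25.5 and 8.28 CPM in the 3 libraries and was open to free RNA. Id3, a regulator of memory T cells, stood at 19.5, 10.3 and 31.2 CPM, higher in PPARg-/- tumour over WT tumour by 1.60 (0.74 to 2.54). The pro-apoptotic gene Bak1 was higher in the same comparison, at 15.8 and 35.7 CPM, with and without mixed barcodes.

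The remaining lists are given by their called genes over all chosen cells, with those whose call ended without mixed barcodes. In WT tumour over WT healthy, 4 of 23 genes of common-gamma-chain cytokine signalling were higher (Bcl2, Cish, Socs1, Socs2) and 3 lower (Il21r, Stat5a, Il2rb), of which Socs2 (below 20 UMIs) and Il2rb (-0.56) were not called without mixed barcodes. Of 23 chemokine receptors and integrins 6 were higher, with Ccr2 beside those named above, and 4 lower, with S1pr4, and without mixed barcodes 5 and 2, where Ccr2 stood at 0.51 (-0.02 to 1.07) and S1pr4 at -0.56. Of 34 lineage factors 2 were higher (Zeb2, Id2) and 3 lower (Gata3, Satb1, Zeb1), of which Zeb2, Gata3 (-0.54) and Zeb1 (-0.38) were not called without mixed barcodes. Of 16 glycolysis genes 3 were higher (Hk2, Tpi1, Pgam1) and 0 lower, and without mixed barcodes 0 of 14 were higher or lower. Of 12 lectin receptor genes Klra9 and Tyrobp were higher and Klrg1 lower, of 15 checkpoint genes Icos and Nr4a2 were lower, of 12 TGF-beta genes Itgae was lower, and of 25 apoptosis genes Bcl2 was higher and Gimap7 and Bak1 lower. Tyrobp (0.45, -0.33 to 1.28), Itgae and Gimap7 (-0.44) were not called without mixed barcodes. Interferon genes Ifi209 and Isg15 were the 2 lower ones, Ifi209 over all cells only (-0.54 without mixed barcodes).

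In PPARg-/- tumour over WT tumour, 6 of 27 apoptosis genes were higher, among them Fasl, Bak1, Bcl2a1a, Bcl2a1b and Pmaip1, and 0 lower. Without mixed barcodes 5 of 26 were higher, and Bcl2a1a (below 20 UMIs) and Pmaip1 (1.13, -0.02 to 2.38) were not called. Of 18 checkpoint genes 2 were higher (Nr4a2, Havcr2) and 3 lower (Ctla4, Icos, Tnfrsf18), of 35 lineage factors 3 higher (Id3, Irf8, Bcl6) and 1 lower (Myb), and of 25 fatty acid genes 3 higher (Abca1, Cd36, Pparg) and 2 lower (Sqle, Scd1). Without mixed barcodes Icos, Irf8 (0.42, -0.67 to 1.54) and Bcl6 (below 20 UMIs) were not called, Havcr2 stayed called (0.75 over all cells, 0.19 to 2.99 as the interval without), and of 21 fatty acid genes 0 were higher and 2 lower (Fasn, Scd1), with Abca1 at -1.17 (-2.48 to 0.02). Id3 was the 1 called gene of 20 in the memory and homing list, Socs1 the 1 lower of 25 in cytokine signalling and Hk2 the 1 higher of 17 in glycolysis, at 0.18 (-1.12 to 1.51) without mixed barcodes. Of 23 chemokine receptors and integrins Cx3cr1 was higher and Itga1 and Gpr183 lower, and without mixed barcodes Itgb1 and Gpr183 were the lower ones. Neither the 20 MHC class I genes nor the 12 TGF-beta genes held a called one over all cells, and without mixed barcodes the TGF-beta inhibitor genes Ski and Skil were lower.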
